A study of Mus musculus with 15 samples.

Results

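The genes described here are 8 components of the machinery that detects nucleic acids inside the cell: the sensors Ifih1, Dhx58, Zbp1 and Eif2ak2, the adaptor Mavs, the kinases Tbk1 and Ikbke, and the scaffold Tank. They were chosen by gene symbol and are 8 of 18193 genes measured by the arrays. All 8 had at least 1 probe set and all 8 were among the 11871 genes tested. RNA from thymocytes sorted out of the thymus of young adult C57BL/6 mice was measured on 15 arrays, 3 for each of 5 groups. PreDP (CD69-TCRβ-) and PostDP (CD69+TCRβ+) cells were double-positive thymocytes before and after selection and came from B2m-/- mice, which lack the light chain of MHC class I. Tak1-deficient SM&M1 cells (Qa2-CD69+) came from Tak1f/f CD4Cre mice, in which Cre driven from CD4 regulatory sequences removes a floxed part of Map3k7, the gene of the kinase TAK1. SM&M1 cells of the same surface phenotype and M2 cells (Qa2+CD69-), the earlier and later CD4 single-positive (CD4SP) stages, came from Rag2-GFP BAC transgenic mice, whose reporter marks recently formed T cells. The dump channel (NK1.1, CD25 and GL3) and the Rag2-GFP gate are described for the Rag2-GFP mice and not for the Tak1f/f CD4Cre mice. The mouse line therefore changes together with the stage between PostDP and SM&M1 and between PreDP and M2, and together with the genotype between Tak1-deficient and Tak1-sufficient SM&M1. Between Tak1-deficient SM&M1 and PostDP it changes with both, and in all these comparisons line and stage or genotype cannot be told apart. The samples are labelled biological replicates, with no statement that they came from separate animals.

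Cells carry several detectors of misplaced or foreign nucleic acids. MDA5, the product of Ifih1, binds long double-stranded RNA and signals through MAVS on the mitochondrial surface, and LGP2, the product of Dhx58, belongs to the same helicase family but lacks the signalling domain. MAVS recruits the kinases TBK1 and IKKε (Ikbke), which phosphorylate the interferon regulatory factors that switch on type I interferon genes. TANK is a scaffold that binds TBK1 and IKKε. ZBP1 binds Z-form nucleic acids and can start cell death through RIPK3, and PKR, the product of Eif2ak2, stops translation by phosphorylating eIF2α when it binds double-stranded RNA. Several of these genes are themselves induced by interferon, and a low, tonic interferon signal is known to act on T cells maturing in the thymus.

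Levels are given as log2(signal + 16) of the deposited array signal, in the order replicate 1, 2 and 3. A difference of 1 on this scale is a 2-fold difference, and differences of dim genes are understated by the added constant of 16. Levels of different genes are not comparable, since probes differ in brightness. The trimmed mean signal was 500 on every array, and the median signal lay between 80.52 and 121.46 on 14 arrays. Tak1-deficient SM&M1 replicate 2 stood apart: its median signal was 167.81, its correlations within its group were 0.873 and 0.879, whereas no such value was under 0.965 in the other groups, and the Actb probe sets gave a 3′ to 5′ ratio of 1.62 there and 1.02 to 1.18 elsewhere. Values without this array are given beside the results it moves most. The targeted gene Map3k7 averaged 5.39 ± 0.65 in Tak1-deficient SM&M1 cells and 10.42 ± 0.03 in SM&M1 cells (SD, n = 3 each). Among surface genes of the labelled cell types, Cd8a lay between 12.45 and 14.09 in the double-positive groups, between 7.65 and 8.03 in SM&M1 and between 5.22 and 7.27 in M2. B2m lay between 9.55 and 9.78 in PreDP, between 10.03 and 10.17 in PostDP, and between 13.88 and 14.85 in the 3 CD4SP groups. Cd8a in Tak1-deficient SM&M1 cells lay between 9.28 and 10.22, above every SM&M1 array. Cd4 lay between 12.56 and 12.78 in PreDP, 11.26 and 11.74 in PostDP, 12.02 and 12.50 in SM&M1, and 11.82 and 12.18 in M2. In Tak1-deficient SM&M1 cells Cd4 lay between 11.02 and 11.50, below every SM&M1 array and overlapping PostDP. Both the female-specific Xist (at least 13.06) and the Y-linked Eif2s3y (at least 9.62) were high on every SM&M1 and M2 array. In the other groups they varied between arrays. Xist ranged from 7.19 to 13.65 in PreDP, 7.60 to 13.99 in PostDP and 7.42 to 14.01 in Tak1-deficient SM&M1 cells. Eif2s3y ranged from 4.10 to 11.73, 4.11 to 11.33 and 4.33 to 11.49 in the same groups. These sex markers thus also differ between the mouse lines, and the part of sex in the differences was not tested.

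Ifih1, which encodes MDA5, divided the 5 groups into a low and a high set. Its levels were 8.62, 9.11 and 8.12 in PreDP, 9.20, 8.64 and 8.44 in PostDP, 10.81, 11.06 and 10.55 in SM&M1, and 10.97, 11.14 and 11.12 in M2 cells. All 6 SM&M1 and M2 arrays were above all 6 double-positive arrays, while PreDP and PostDP overlapped, as did SM&M1 and M2. Loss of Tak1 went with levels of 9.52, 8.66 and 9.33 in Tak1-deficient SM&M1 cells, against 10.81, 11.06 and 10.55 in SM&M1 cells. The Tak1-deficient arrays lay below every SM&M1 array. Replicate 2 fell within the PostDP range, and replicates 1 and 3 were above the highest PostDP array. Ifih1 rose by 2.05 ± 0.28 (SE) in SM&M1 relative to PostDP cells, a 4.13-fold difference, with an adjusted p of 0.000435 in the limma fit. It was lower by a log2 difference of -1.64 ± 0.28 in Tak1-deficient SM&M1 than in SM&M1 cells (adjusted p = 0.0131), which is 3.11-fold. Relative to PostDP, the level in Tak1-deficient SM&M1 cells differed by 0.41, with a 95% interval of -0.21 to 1.02 (adjusted p = 0.373), and by 0.66 without Tak1-deficient replicate 2 (adjusted p = 0.13).

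Dhx58, the gene of the helicase LGP2, varied widely within the double-positive groups. It read 7.6, 5.91 and 6.0 in PreDP, 8.08, 7.07 and 6.56 in PostDP, 9.36, 9.57 and 9.24 in SM&M1, and 10.0, 9.73 and 10.0 in M2 cells. Each SM&M1 and M2 array was above each double-positive array, and the SDs were 0.95 in PreDP and 0.77 in PostDP against 0.17 in SM&M1 and 0.16 in M2. Dhx58 rose by 2.15 ± 0.53 in SM&M1 relative to PostDP (4.44-fold, limma adjusted p = 0.0175), a call that was lost when PostDP replicate 2 (adjusted p = 0.0634), PostDP replicate 3 (0.0865), SM&M1 replicate 1 (0.0506) or SM&M1 replicate 2 (0.061) was left out. The Tak1-deficient SM&M1 arrays read 8.59, 6.63 and 8.20, against 9.36, 9.57 and 9.24 in SM&M1 cells. The groups did not overlap, but the difference of -1.58 ± 0.53 did not pass (adjusted p = 0.153), and without Tak1-deficient replicate 2 it was -1.0 (adjusted p = 0.295).

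Zbp1, the sensor of Z-form nucleic acids, occupied a range of its own in every group but SM&M1 and M2. Its levels were 9.09, 8.87 and 8.65 in PreDP, 9.62, 9.51 and 9.37 in PostDP, 10.98, 11.18 and 11.54 in SM&M1, and 11.26, 11.53 and 11.74 in M2 cells. PreDP, PostDP and SM&M1 did not overlap one another, and SM&M1 and M2 did. Tak1-deficient SM&M1 cells had Zbp1 levels of 10.16, 10.44 and 9.80, against 10.98, 11.18 and 11.54 in SM&M1 cells. The Tak1-deficient arrays sat in the gap between the PostDP and SM&M1 arrays, overlapping neither, and 18.4% of all genes had every Tak1-deficient array above every PostDP array. Zbp1 rose by 1.73 ± 0.21 in SM&M1 relative to PostDP (3.32-fold, limma adjusted p = 0.000134) and was 2.14-fold lower in Tak1-deficient SM&M1 than in SM&M1 cells, a log2 difference of -1.10 ± 0.21 (adjusted p = 0.0198). Against PostDP, the Tak1-deficient cells differed by 0.63 with a 95% interval of 0.18 to 1.08, which did not pass over all genes (adjusted p = 0.0717).

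Eif2ak2, the gene of PKR, showed the same grouping over a smaller range. It read 8.35, 8.21 and 8.18 in PreDP, 8.85, 8.17 and 8.18 in PostDP, 9.10, 9.10 and 9.65 in SM&M1, and 9.51, 9.54 and 9.5 in M2 cells. The SM&M1 and M2 arrays were again above all double-positive arrays, with PostDP replicate 1 nearest to them. Eif2ak2 rose by 0.88 ± 0.23 in SM&M1 relative to PostDP (1.84-fold, limma adjusted p = 0.0263). This call was lost without PostDP replicate 2 (adjusted p = 0.11), PostDP replicate 3 (0.111) or SM&M1 replicate 3 (0.125), and without a filter on dim probe sets (0.0519). Eif2ak2 in Tak1-deficient SM&M1 cells read 8.55, 8.77 and 8.01, against 9.10, 9.10 and 9.65 in SM&M1 cells. No Tak1-deficient array reached the SM&M1 range, yet the difference of -0.84 ± 0.23 did not pass (adjusted p = 0.0962). Without Tak1-deficient replicate 2 it was -1.0 and passed (adjusted p = 0.0426).

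**Figure D1:**
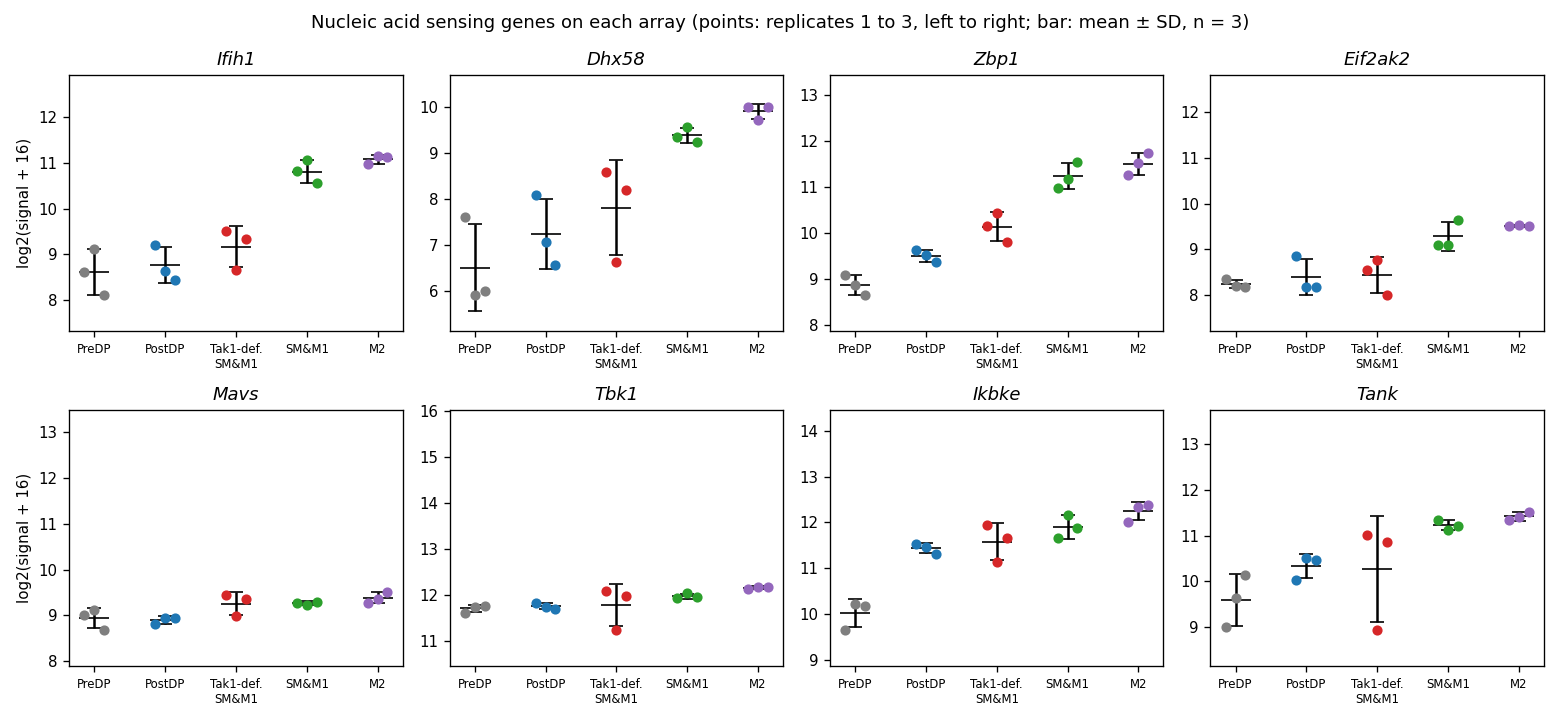
Level of each of the 8 genes on every array, as log2(signal + 16), in the 5 groups. Points are replicates, bars the mean and SD of 3 arrays, and every panel spans the same number of log2 units. Ifih1, Dhx58, Zbp1 and Eif2ak2 sit higher in SM&M1 and M2 than in the other groups, Ikbke sits lower in PreDP than elsewhere, and Mavs and Tbk1 vary little.

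The proximal promoters of these genes were read beside their levels because the 4 sensors were higher together in SM&M1 than in PostDP cells. RefSeq promoter windows (build GRCm38.p6, 250 bases before and 50 after the transcription start) were matched for 6 of the 8 genes, all but Zbp1 and Dhx58, with 9 windows in all, 4 of them for Tank. The windows were searched on both strands for the core of the interferon-stimulated response element, GAAANNGAAA, for the gamma-activated site TTCNNNGAA bound by STAT dimers, and for the κB motif. Positions are counted from the start base as 0. The windows of Ifih1 (chr2:62646206-62646505, minus strand), Eif2ak2 (chr17:78882523-78882822, minus strand), the first Tank window (chr2:61592847-61593146, plus strand) and Mavs (chr2:131233813-131234112, plus strand) are shown to set the sensors beside the adaptor and the scaffold, with the response element core in capitals in the first pair and the κB match in capitals in Tank.
Ifih1: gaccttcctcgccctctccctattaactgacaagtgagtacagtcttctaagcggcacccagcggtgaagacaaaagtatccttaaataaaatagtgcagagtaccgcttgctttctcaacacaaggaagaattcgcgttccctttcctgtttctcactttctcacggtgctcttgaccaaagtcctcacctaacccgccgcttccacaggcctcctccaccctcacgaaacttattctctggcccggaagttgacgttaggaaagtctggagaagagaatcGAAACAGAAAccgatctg
Eif2ak2: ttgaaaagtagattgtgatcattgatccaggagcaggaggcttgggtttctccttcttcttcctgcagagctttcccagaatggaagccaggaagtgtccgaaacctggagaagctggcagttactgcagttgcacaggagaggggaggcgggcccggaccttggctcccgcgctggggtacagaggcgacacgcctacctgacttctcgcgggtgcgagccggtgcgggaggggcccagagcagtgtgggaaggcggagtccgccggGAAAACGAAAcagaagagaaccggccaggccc
Tank: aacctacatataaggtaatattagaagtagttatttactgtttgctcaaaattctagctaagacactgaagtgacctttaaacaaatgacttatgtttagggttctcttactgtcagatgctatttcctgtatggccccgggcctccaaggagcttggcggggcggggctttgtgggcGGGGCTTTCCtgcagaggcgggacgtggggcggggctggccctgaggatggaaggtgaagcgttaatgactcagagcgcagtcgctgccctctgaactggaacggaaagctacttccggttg
Mavs: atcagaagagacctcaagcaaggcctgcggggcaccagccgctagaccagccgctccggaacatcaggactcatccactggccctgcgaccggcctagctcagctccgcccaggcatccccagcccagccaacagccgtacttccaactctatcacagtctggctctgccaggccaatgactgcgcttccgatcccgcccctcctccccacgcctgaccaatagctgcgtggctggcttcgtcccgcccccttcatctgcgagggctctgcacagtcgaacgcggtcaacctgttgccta

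The response element core was present at 32 to 41 in the Ifih1 window, as GAAACAGAAA, and at 18 to 27 in the Eif2ak2 window, as GAAAACGAAA. It was in no window of Mavs, Tbk1, Ikbke or Tank, and 3.44% of all 32851 promoter windows hold it. With 3 free bases between its 2 GAAA blocks, the core matched in the Ifih1 window from -107 to -97 and in 2.75% of all windows, and with 1 free base it matched no member and 3.17% of all windows. The gamma-activated site was found in the Eif2ak2 window from -178 to -170 and in 8.3% of all windows. The κB motif was found in overlapping Tank windows, at -72 to -63 of the first and at -127 to -118 of the window at chr2:61592902-61593201, which are the same genomic bases, and in 4.51% of all windows. No match in the members' windows overlapped another motif's match. These are matches of letters, not measured binding.

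Mavs, the adaptor that joins the RNA helicases to the kinases, differed little between groups in the probe set used. It read 9.0, 9.12 and 8.69 in PreDP, 8.81, 8.94 and 8.95 in PostDP, 9.28, 9.22 and 9.30 in SM&M1, and 9.28, 9.35 and 9.52 in M2 cells. The SM&M1 and M2 arrays were above the double-positive arrays by small margins. The SM&M1 level differed from PostDP by 0.37 ± 0.16 (limma adjusted p = 0.178, 95% interval 0.02 to 0.71) and did not pass. Tak1-deficient SM&M1 cells read 9.44, 8.98 and 9.35, against 9.28, 9.22 and 9.30 in SM&M1 cells. These groups overlapped, with a difference of -0.01 and a 95% interval of -0.36 to 0.33, and without Tak1-deficient replicate 2 the difference was 0.13 (adjusted p = 0.676).

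Tbk1, which encodes the kinase that activates IRF3 and IRF7, had a narrow range. Its levels were 11.61, 11.74 and 11.76 in PreDP, 11.83, 11.73 and 11.69 in PostDP, 11.92, 12.03 and 11.95 in SM&M1, and 12.12, 12.17 and 12.17 in M2 cells. The levels of SM&M1 and then M2 lay just above those of the stage before, with no overlap, but neither difference passed: SM&M1 differed from PostDP by 0.22 (limma adjusted p = 0.554) and M2 from SM&M1 by 0.19 (adjusted p = 0.947). Tbk1 in Tak1-deficient SM&M1 cells read 12.09, 11.24 and 11.98, against 11.92, 12.03 and 11.95 in SM&M1 cells. Replicate 2 was the low array here, and without it the difference was 0.07 in place of -0.20.

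Ikbke, the gene of IKKε, passed in the earliest of the stage comparisons. It read 9.66, 10.22 and 10.18 in PreDP, 11.53, 11.46 and 11.31 in PostDP, 11.65, 12.16 and 11.88 in SM&M1, and 12.01, 12.34 and 12.37 in M2 cells. Every PostDP array was more than 1 log2 unit above every PreDP array, and each later mean was higher than the one before. Ikbke rose by 1.42 ± 0.22 in PostDP relative to PreDP cells (2.67-fold, limma adjusted p = 0.000741), both groups being from B2m-/- mice. Ikbke in Tak1-deficient SM&M1 cells read 11.94, 11.14 and 11.66, against 11.65, 12.16 and 11.88 in SM&M1 cells. These overlapped, with a difference of -0.32 and a 95% interval of -0.81 to 0.16 (adjusted p = 0.453), and without Tak1-deficient replicate 2 the difference was -0.10 (adjusted p = 0.839).

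Tank, the scaffold of TBK1 and IKKε, had a higher mean at each later stage, with a wide spread in PreDP. Its levels were 9.0, 9.63 and 10.15 in PreDP, 10.03, 10.51 and 10.46 in PostDP, 11.35, 11.13 and 11.22 in SM&M1, and 11.34, 11.40 and 11.52 in M2 cells. All SM&M1 and M2 arrays were above all double-positive arrays. The SM&M1 level differed from PostDP by 0.90 ± 0.44, which did not pass (limma adjusted p = 0.227). It passed in a fit of those groups alone (adjusted p = 0.0104) and in a fit of all groups without Tak1-deficient replicate 2 (adjusted p = 0.0155). The Tank levels of Tak1-deficient SM&M1 cells were 11.01, 8.95 and 10.87, against 11.35, 11.13 and 11.22 in SM&M1 cells. The low mean rests on replicate 2: the difference was -0.96 ± 0.44 with it (adjusted p = 0.274) and -0.29 ± 0.26 without it (adjusted p = 0.596).

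In PostDP relative to PreDP cells, the comparison before and after selection, 1 of the 8 genes rose, Ikbke, and none fell. Among all genes tested, 7.35% rose and 7.57% fell, and 49.3% of the calls were rises, or 36.1% with each array centred on its median. The median difference over the 8 genes was 0.39, and over all genes it was 0.01. Zbp1 and Ikbke had every PostDP array above every PreDP array, which held for 19.1% of all genes, and Zbp1 differed by 0.63 ± 0.21 (limma adjusted p = 0.06). Same-numbered samples of these groups deviated together, and with the replicate number as a block 4 of the 8 genes rose: Ikbke (adjusted p = 0.00697), Zbp1 (0.0198), Dhx58 (0.0403) and Tank (0.0405), where 11% of all genes rose. Without Tak1-deficient replicate 2 in the fit, which is in neither group, 3 rose, Ikbke, Zbp1 and Tank, and 12.2% of all genes rose. For Ifih1, Eif2ak2, Mavs and Tbk1 the differences were between -0.04 and 0.15.

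In SM&M1 relative to PostDP cells, the step to the CD4SP stage, 4 of the 8 genes rose and none fell, against 7.84% rising and 4.14% falling among all genes tested. The 4 were the sensors Ifih1, Zbp1, Dhx58 and Eif2ak2, whereas Mavs, Tbk1, Ikbke and Tank had differences of 0.22 to 0.90 that did not pass. The median over the 8 genes was 0.89, and 0.03 over all genes. All 8 had every SM&M1 array above every PostDP array, which held for 23.1% of all genes. Without SM&M1 replicate 1 and M2 replicate 1, the arrays with the highest macrophage marker signal of their groups, 2 genes passed, Ifih1 (2.05, adjusted p = 0.00452) and Zbp1 (1.86, adjusted p = 0.000605), while Dhx58 and Eif2ak2 kept differences of 2.17 and 0.97 that did not (adjusted p = 0.0706 and 0.0618). The calls over all genes, in either direction, also fell in that fit, from 1423 to 882.

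In M2 relative to SM&M1 cells, both from Rag2-GFP mice, none of the 8 genes passed in limma, the lowest adjusted p being 0.779, for Ikbke. Among all genes tested, 0.952% rose and 1.38% fell. All 8 differences were positive, from 0.12 for Mavs to 0.52 for Dhx58, with a median of 0.25 against -0.01 over all genes. Dhx58 and Tbk1 had every M2 array above every SM&M1 array, as did 10.5% of all genes. Same-numbered samples of these groups also deviated together, and with the replicate number as a block no member passed (adjusted p of 0.126 for Dhx58 to 0.47 for Mavs). The Ifih1 difference was 0.27 ± 0.13 (SE) in the blocked fit (adjusted p = 0.269), with M2 higher in 3 of 3 pairs, and that of Zbp1 was 0.27 ± 0.08 (adjusted p = 0.145), also higher in 3 of 3 pairs.

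From the start to the end of the series, M2 relative to PreDP, 6 of the 8 genes rose and none fell, where 14.6% of all genes rose and 12.5% fell. Dhx58 was 10.6-fold higher (3.41 ± 0.53, limma adjusted p = 0.00026), Zbp1 6.23-fold (2.64 ± 0.21, adjusted p = 6.5e-07), Ifih1 5.51-fold (2.46 ± 0.28, adjusted p = 2.06e-05) and Ikbke 4.66-fold (2.22 ± 0.22, adjusted p = 6.16e-06). Tank was 3.55-fold higher (adjusted p = 0.00624) and Eif2ak2 2.41-fold (adjusted p = 0.00104). Mavs and Tbk1 both differed by 0.45 and did not pass (adjusted p = 0.0562 and 0.0982), while both passed without Tak1-deficient replicate 2 in the fit (0.0125 and 0.00239). Their differences stayed at 0.45 in that fit, where 4699 genes of all passed in either direction, in place of 3222. Every M2 array was above every PreDP array for all 8 genes, as for 24.6% of all genes. This comparison shares its arrays with the stage comparisons above.

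**Figure D2:**
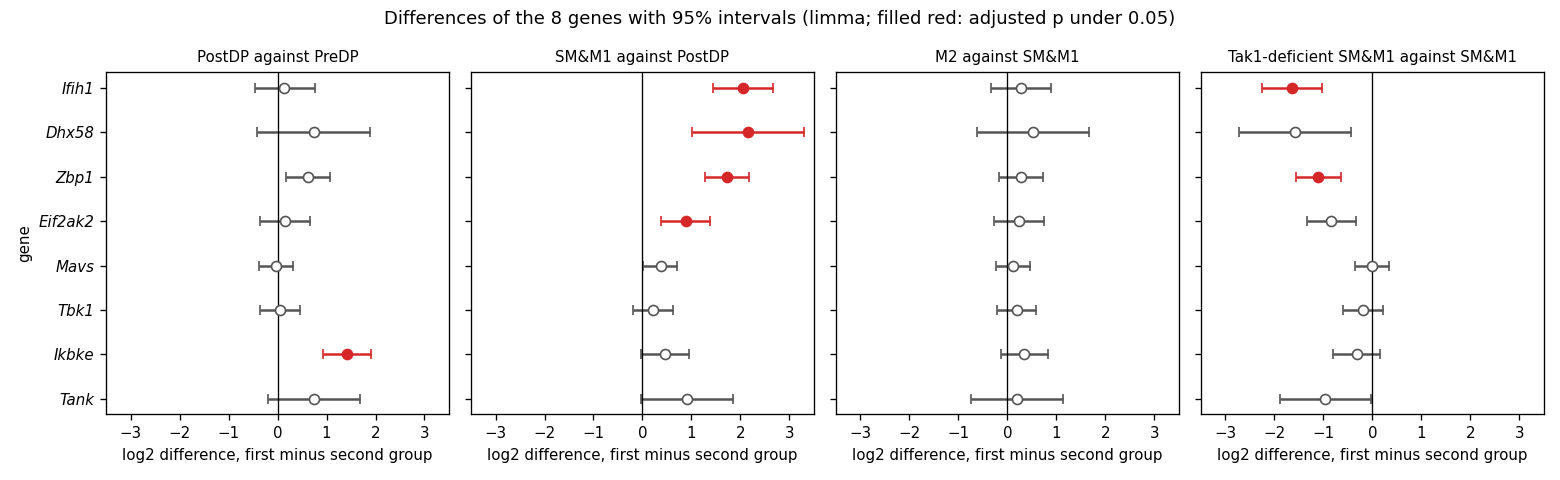
Difference of each gene between the groups named above each panel, in log2 units, first minus second group, with 95% intervals from limma. Filled red points passed at an adjusted p under 0.05: Ikbke in PostDP against PreDP, the 4 sensors in SM&M1 against PostDP, none in M2 against SM&M1, and Ifih1 and Zbp1, both lower, in Tak1-deficient SM&M1 against SM&M1.

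Tak1-deficient SM&M1 cells had lower levels of 2 of the 8 genes than SM&M1 cells, Ifih1 and Zbp1, and a higher level of none. Among all genes tested 1.26% were lower and 0.43% higher, and 25.4% of the calls were rises, or 13.4% with each array centred on its median. The median over the 8 genes was -0.90 and over all genes 0.05, and without Tak1-deficient replicate 2 these were -0.64 and 0.04. For Ifih1, Dhx58, Zbp1, Eif2ak2 and Tank every Tak1-deficient array was below every SM&M1 array, which held for 9.01% of all genes. Mavs, Tbk1 and Ikbke overlapped. Without Tak1-deficient replicate 2, 3 genes passed: Ifih1 at -1.38 (limma adjusted p = 0.0199), Zbp1 at -1.26 (0.00681) and Eif2ak2 at -1.0 (0.0426), where 1.96% of all genes were lower. With SM&M1 replicate 2 left out no member passed (Ifih1 -1.51, adjusted p = 0.0684, and Zbp1 -1.13, adjusted p = 0.0717), with SM&M1 replicate 3 left out Ifih1 alone passed, without SM&M1 replicate 1 and M2 replicate 1 Zbp1 alone passed (-1.23, adjusted p = 0.0326, with Ifih1 at 0.064), and in a fit of those groups alone no member passed (adjusted p = 0.216 and 0.325) and 5 genes of all passed in place of 201. Genes of all that passed were 69 without SM&M1 replicate 2 and 65 without SM&M1 replicate 3. Without SM&M1 replicate 1 and M2 replicate 1 they were 96.

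Tak1-deficient SM&M1 cells were also set against PostDP, the stage before, from B2m-/- mice. None of the 8 genes passed in limma, the lowest adjusted p being those of Zbp1 (0.63, adjusted p = 0.0717) and Mavs (0.35, adjusted p = 0.179). Among all genes tested 7.16% were higher and 3.72% lower. The median over the members was 0.25, and 0.10 over all genes, and without Tak1-deficient replicate 2 these were 0.48 and 0.07. Without that array Mavs passed (0.49, adjusted p = 0.0328), where 10.1% of all genes were higher, and without Tak1-deficient replicate 3 Zbp1 passed (0.80, adjusted p = 0.0327). Leaving out replicate 3 gave 1548 calls over all genes in either direction, in place of 1292. The comparison shares the Tak1-deficient arrays with the comparison against SM&M1, and the PostDP arrays with the comparison of SM&M1 against PostDP.

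Markers of other cells moved with some arrays. The summed signal of 11 macrophage genes, 7 of them above the array median in at least 3 arrays, was 602 to 819 in PreDP cells, 886 to 1071 in PostDP cells, 1021 to 3361 in Tak1-deficient SM&M1 cells, 732 to 1999 in SM&M1 cells and 890 to 2025 in M2 cells. SM&M1 replicate 1 (1999), M2 replicate 1 (2025) and Tak1-deficient replicates 2 and 3 (3361 and 2575) were high. Tak1-deficient replicate 2, the array with the highest median signal, also had the highest sums of T cell (148532), dendritic cell (35328) and thymic epithelium genes (2033). Its sums of B cell (1199), neutrophil, natural killer and effector genes were not the highest. Of the defining complement genes, C1qc was above the array median on 0 arrays, C1qa on 1 and C1qb on 2, and Mertk was above it on 0. Csf1r and Cd68 were above it on 15 arrays each, Fcgr1 on 12, Lyz2 on 10, Adgre1 on 6, Hmox1 on 5 and Vcam1 on 4. The summed signal of 6 neutrophil genes was 3465 and 5167 in Tak1-deficient replicates 2 and 3, 3759 in SM&M1 replicate 1 and 4165 in M2 replicate 1, against 173 to 429 on the other arrays. Natural killer and NKT cell markers, 7 genes of which 6 were above the array median in at least 3 arrays, had summed signals that were higher in every CD4SP array than in every double-positive array. These were 153 to 333 in PreDP cells, 561 to 569 in PostDP cells, 1064 to 2104 in Tak1-deficient SM&M1 cells, 958 to 2208 in SM&M1 cells and 1192 to 2576 in M2 cells. Of their defining genes, Ncr1 was above the array median on 1 array and Tbx21 on 3. The genes of this list did not all follow the sums. On SM&M1 replicates 2 and 3 Il2rb was the brightest of them (9.41 and 9.11, against 6.56 to 7.31 in PostDP). On these arrays Klrk1 and Tbx21 were also above every PostDP array, whereas Nkg7 (6.45 and 6.81) and Klrd1 (5.85 and 5.88) were below every PostDP array. The 8 effector or memory T cell genes summed to 379 to 519 in PreDP cells, 605 to 729 in PostDP cells, 491 to 2237 in Tak1-deficient SM&M1 cells, 651 to 2489 in SM&M1 cells and 1030 to 2978 in M2 cells. The part of these other cells in the sensor levels was not tested. The higher Cd8a and lower Cd4 levels of Tak1-deficient SM&M1 cells also moved with the lower sensor levels, and their part in them was not tested. In bulk RNA, fewer cells of a type and less RNA per cell cannot be told apart.

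Different probe sets of a gene mostly moved alike. The 8 genes had 16 probe sets, with 1 each for Ifih1 and Ikbke. The second Zbp1 probe set differed by 1.53 in SM&M1 relative to PostDP, against 1.73 in the probe set used, and by -0.62 in Tak1-deficient SM&M1 relative to SM&M1, against -1.10. The other Eif2ak2 probe sets differed by 1.5 and 0.67 at the first of these steps and by -1.15 and -0.60 at the second. The Dhx58 probe sets disagreed: a second probe set, above the array median on 6 arrays, differed by 0.04 in SM&M1 relative to PostDP and by 0.39 in Tak1-deficient SM&M1 relative to SM&M1, and a further one was above the array median on 0 arrays. The Dhx58 differences therefore rest on 1 of 3 probe sets. A second Mavs probe set, of a type that can bind transcripts of other genes, differed by -0.80 in Tak1-deficient SM&M1 relative to SM&M1, with Tak1-deficient replicate 2 at 6.31. With the mean of all probe sets in place of the brightest, 4 genes were lower in Tak1-deficient SM&M1, Ifih1, Dhx58 (-0.87), Zbp1 and Eif2ak2 (-0.86). In that fit 184 genes of all passed in either direction, against 201 in the main fit. Its Dhx58 value averages in the probe set that differed by 0.39 and the one never above the array median, which differed by -1.43.

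**Figure D3:**
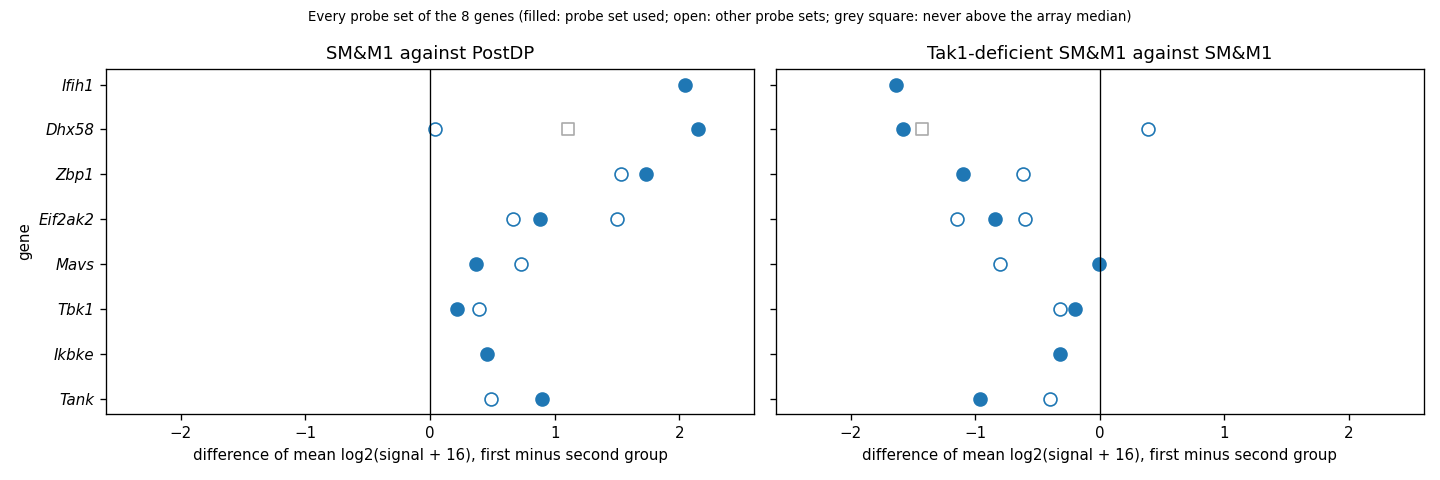
Difference of mean log2(signal + 16) for each of the 16 probe sets of the 8 genes, on the left SM&M1 against PostDP, on the right Tak1-deficient SM&M1 against SM&M1. Filled circles are the probe sets used, open circles the others, and the grey square a Dhx58 probe set that was above the array median on 0 arrays. The Dhx58 probe sets are spread apart, and those of Zbp1, Eif2ak2 and Tbk1 lie on the same side of 0 in each panel.

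The 8 genes correlated with one another over the 15 arrays, with Pearson r of 0.52 to 0.93 over 28 pairs and a median of 0.76, and 0.54 to 0.96 with a median of 0.82 without Tak1-deficient replicate 2. The arrays share group differences and depth of signal, so these values describe the shared pattern of the groups. Among all tested genes, those most like Ifih1 were Trim34a (r = 0.968), Atn1 (0.966) and the helicase gene Ddx60 (0.959). The nearest to Dhx58 were Trim30a (0.973), Rtp4 (0.97) and Ddx60 (0.965), and the nearest to Zbp1 were Slc35g1 (0.986), Irf9 (0.983), which encodes the DNA-binding subunit of the interferon-activated ISGF3 complex, and Tapbp (0.983), which encodes the MHC class I chaperone tapasin. Eif2ak2 was closest to Nmi (0.938), Oas1a (0.938) and Tecpr1 (0.937). Ikbke was closest to Sp100 (0.983), Evl (0.967) and Zadh2 (0.966), and Tbk1 to Daam1 (0.965), Smchd1 (0.964) and Pml (0.96), the gene of the nuclear body protein PML. Tank was closest to D830012I24Rik (0.967), Tmem63a (0.961) and Itsn2 (0.949). Mavs had the lowest such values, with Snhg4 (0.921), Fndc10 (0.916) and Rpp40 (0.9).

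Other genes of the pathway were taken as 7 lists of 90 genes, of which 79 had a probe set and 68 were tested. Of the other RNA sensors and their ubiquitin ligases, 12 were tested, and Rigi, the gene of RIG-I, had no probe set of its own and was not analysed here. In SM&M1 relative to PostDP 6 of the 12 rose and 0 fell, against 7.84% rising and 4.14% falling over all genes, with a median of 0.59 against 0.03 over all genes. Tlr7, an endosomal receptor for single-stranded RNA, averaged 8.76 in SM&M1 and 5.53 in PostDP cells (difference 3.24 ± 0.49, limma adjusted p = 0.000759). Ifit1, whose product binds RNA lacking the host cap methylation, averaged 11.58 in SM&M1 and 8.87 in PostDP (2.71 ± 0.34, adjusted p = 0.000213), and Ddx60 averaged 9.81 in SM&M1 and 7.76 in PostDP (2.05 ± 0.34, adjusted p = 0.00149). Of the same 12, 0 were higher and 2 lower in Tak1-deficient SM&M1 relative to SM&M1, against 0.43% and 1.26% over all genes. These were Ifit1, at 9.25 in Tak1-deficient and 11.58 in SM&M1 cells (adjusted p = 0.00409), and Ddx60, at 8.11 in Tak1-deficient and 9.81 in SM&M1 cells (adjusted p = 0.0233). Tlr7 averaged 8.49 in Tak1-deficient SM&M1 and 8.76 in SM&M1 cells. Its Tak1-deficient replicate 2 read 9.73, whereas replicates 1 and 3 (8.02 and 7.73) lay below every SM&M1 array. It rose in Tak1-deficient SM&M1 relative to PostDP (2.97 ± 0.49, adjusted p = 0.00215), as did the ubiquitin ligase gene Trim25 (0.72 ± 0.17, adjusted p = 0.0199). These were 2 of the 12, against 7.16% of all genes, and 0 of the 12 were lower.

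Of the DNA sensors and STING, 10 were tested. In PostDP relative to PreDP 1 rose and 1 fell, near the 7.35% and 7.57% over all genes. Sting1, the adaptor of cytosolic DNA sensing, averaged 9.18 in PostDP and 7.53 in PreDP (1.65 ± 0.30, limma adjusted p = 0.00217), and Xrcc6, the gene of the DNA end-binding protein Ku70, averaged 10.54 in PostDP and 13.37 in PreDP (adjusted p = 6.34e-06). Cgas, the enzyme that makes the STING ligand cGAMP, averaged 8.81 in SM&M1 and 7.86 in PostDP (0.95 ± 0.15, adjusted p = 0.00123). None of the 10 passed in limma between Tak1-deficient SM&M1 and SM&M1 cells, where 0.43% of all genes were higher and 1.26% lower. Cgas averaged 8.77 in Tak1-deficient SM&M1 and 8.81 in SM&M1 cells, and Sting1 averaged 10.50 in Tak1-deficient SM&M1 and 10.07 in SM&M1 cells, with Tak1-deficient replicate 2 at 11.30. Relative to PostDP, 4 of the 10 were higher in Tak1-deficient SM&M1 cells and 0 lower, against 7.16% and 3.72% of all genes. They were Sting1 (1.32, limma adjusted p = 0.0152), Zcchc3 (1.32, 0.0293, with Tak1-deficient replicate 2 at 9.21), Xrcc5 (1.04, 0.00176) and Cgas (0.91, 0.00243).

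Of the adaptors, kinase partners and interferon regulatory factors, 12 were tested, and in SM&M1 relative to PostDP 1 rose, near the 7.84% over all genes. That was Irf7, the regulatory factor needed for much of the type I interferon response, at 10.90 in SM&M1 and 9.54 in PostDP (1.36 ± 0.36, limma adjusted p = 0.0258). In M2 relative to PreDP Irf7 rose by 2.90 ± 0.36 (adjusted p = 3.93e-05) and Traf2 fell by 0.55 on the log2 scale (adjusted p = 0.0374). Irf3, the factor directly phosphorylated by TBK1, averaged 11.65 in PreDP cells, 11.90 in PostDP cells, 11.47 in SM&M1 cells and 11.58 in M2 cells. Between Tak1-deficient SM&M1 and SM&M1 cells 0 of the 12 passed in limma, where 0.43% of all genes were higher and 1.26% lower. Irf7 averaged 10.33 ± 0.91 in Tak1-deficient SM&M1 (replicate 2 at 11.34) and 10.90 ± 0.25 in SM&M1 cells. Its Tak1-deficient replicates 1 and 3 (10.07 and 9.57) lay below every SM&M1 array (10.64, 11.12 and 10.94).

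Of the cell death partners of ZBP1, 5 were tested, and in PostDP relative to PreDP 2 rose and 0 fell, where 7.35% of all genes rose. Ripk3, the kinase that ZBP1 engages, averaged 10.32 in PostDP and 9.22 in PreDP (1.10 ± 0.23, limma adjusted p = 0.00553), and Casp8, the caspase that restrains RIPK3, averaged 12.05 in PostDP and 11.22 in PreDP (0.83 ± 0.18, adjusted p = 0.00679). Mlkl, the pore-forming substrate of RIPK3, was too dim to test, with group means of 4.57 to 4.92 on a scale whose floor is 4. Of 10 genes around PKR and eIF2α, 1 fell in PostDP relative to PreDP, Eif2ak3 (adjusted p = 0.037), which encodes the eIF2α kinase PERK, and 1 rose in SM&M1 relative to PostDP, Ddit3 (adjusted p = 0.0232), a stress-induced transcription factor gene. Over all genes 7.57% fell at the first of these steps and 7.84% rose at the second.

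Of the inhibitors of sensing and the enzymes that clear nucleic acids, 17 were tested, and in PostDP relative to PreDP 3 rose and 2 fell, against 7.35% and 7.57% over all genes. Samhd1, which degrades deoxynucleotides, averaged 5.82 in PreDP cells, 8.78 in PostDP cells, 12.36 in SM&M1 cells and 12.06 in M2 cells, with rises of 2.96 in PostDP relative to PreDP (limma adjusted p = 7.81e-07) and of 3.58 in SM&M1 relative to PostDP (adjusted p = 4.68e-07). Nlrc5, also the transactivator of MHC class I genes, averaged 7.85 in PreDP cells, 10.14 in PostDP cells, 12.04 in SM&M1 cells and 12.43 in M2 cells. Adar, whose product edits double-stranded RNA and restrains MDA5 and PKR, rose in M2 relative to PreDP (1.18 ± 0.17, adjusted p = 0.000144). Tak1-deficient SM&M1 cells had 1 of the 17 lower and 0 higher than SM&M1 cells, where 1.26% of all genes were lower. Rnf125, a ubiquitin ligase acting on the RNA helicases and MAVS, averaged 9.46 in Tak1-deficient SM&M1 and 10.40 in SM&M1 cells (adjusted p = 0.0423). Relative to PostDP, 2 of the 17 were higher in Tak1-deficient SM&M1 cells and 2 lower, against 7.16% and 3.72% of all genes. Those higher were Samhd1 (3.33, adjusted p = 1e-06) and Nlrc5 (1.62, adjusted p = 7.39e-05). Among those lower, Tnfaip3, the gene of the NF-κB inhibitor A20, averaged 10.21 in Tak1-deficient SM&M1 and 11.61 in PostDP cells (adjusted p = 0.0115).

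The interferons and cytokines that follow sensing were mostly below the limit for testing. Of 8 with a probe set, 2 were tested, and Ifnb1, Ifna2, Ifna4, Ifng, Cxcl10 and Il6 were not. Ifnb1 averaged 6.6 in PreDP cells, 6.24 in PostDP cells, 6.33 in SM&M1 cells and 6.10 in M2 cells. Its mean was 6.80 in Tak1-deficient SM&M1 cells, where replicate 2 read 7.84. The array medians lay between 6.59 and 7.52 on the same scale. Tnf rose in M2 relative to PreDP (2.46 ± 0.54, limma adjusted p = 0.00353).

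**Figure D4:**
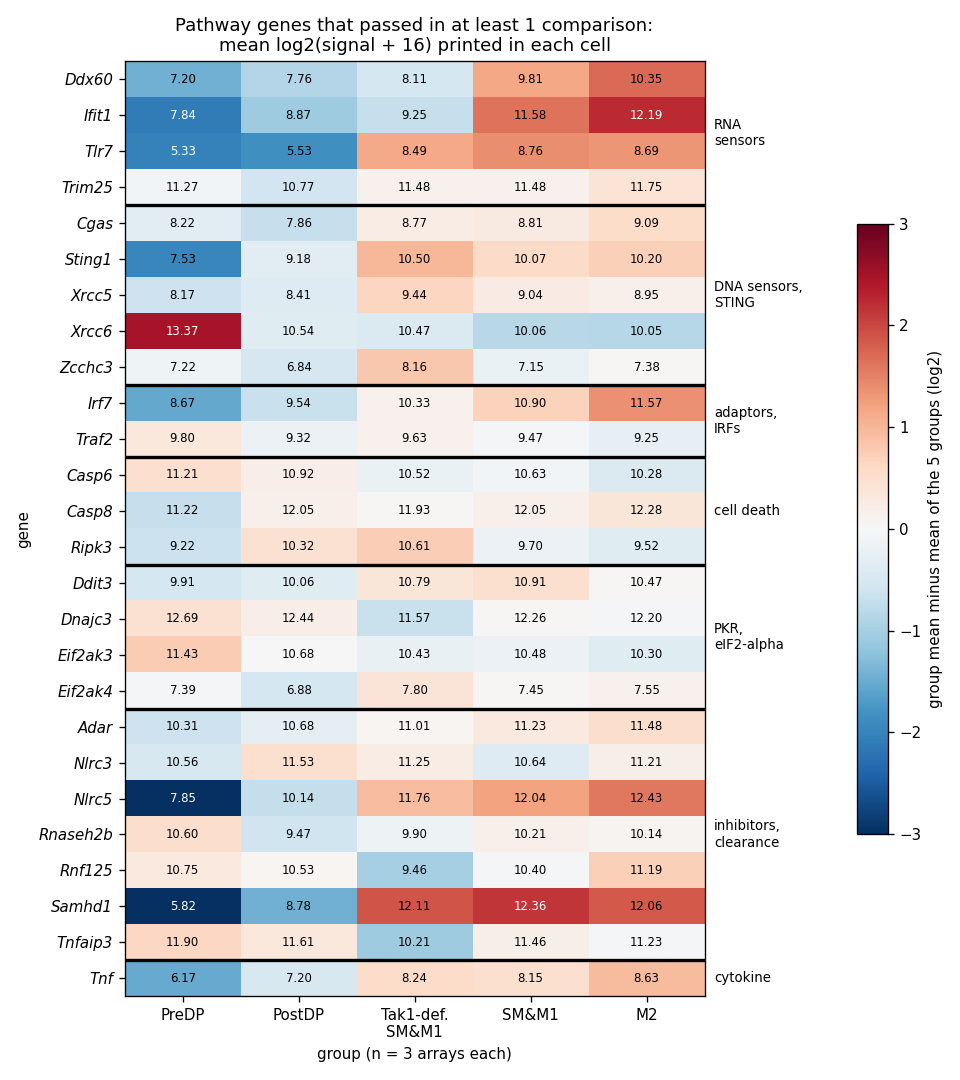
Mean log2(signal + 16) in each group for the pathway genes named by rule, that is, up to 3 per list and comparison among those that passed. Colour is the difference of the group mean from the mean of the 5 groups, and lines separate the lists. Ifit1 and Ddx60 are lower in Tak1-deficient SM&M1 than in SM&M1, whereas Samhd1 and Nlrc5 are nearly as high in Tak1-deficient SM&M1 as in SM&M1. The Tak1-deficient mean of Tlr7 rests on replicate 2 (9.73), with replicates 1 and 3 (8.02 and 7.73) below every SM&M1 array.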

How the data were processed

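RNA was amplified in a single round, biotin-labelled and hybridised to Affymetrix mouse arrays, per the labels' protocols. As deposited, each of 15 arrays has a linear intensity for 45101 probe sets. How the authors summarised and scaled them is not given in the sources used here. The mean after trimming 2% at each end is 500 on every array, so no further normalization was applied. The number of arrays limits the precision.

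Probe sets with 1 gene in the platform annotation (34945) were named, 34741 of them through Entrez numbers matched to RefSeq genes, and the probe set with the highest mean stood for its gene. Genes above the array median in at least 3 arrays were tested with limma 3.58.1 (R 4.3.3) on log2(intensity + 16), with 1 mean per group, all 15 arrays and Benjamini-Hochberg adjustment over all 11871 genes. A gene passed at an adjusted p under 0.05. The fit was checked on simulated data. The labels do not say that replicates are separate animals. Xist and Eif2s3y differed widely between arrays within PreDP, PostDP and Tak1-deficient SM&M1, so the arrays of each of these groups were not all from the same animal. In SM&M1 and M2 both were high on every array, which leaves this open. A p-value therefore measures only the spread of the samples at hand, in part possibly technical.

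Named were the 8 members, up to 3 genes per pathway list and comparison with the largest differences among those that passed, and the 3 genes most correlated with each member. Irf3, the genes below the limit for testing, and pathway genes named where they did not pass were chosen after their values were seen. The members and all lists were chosen with earlier results of these data known. Replicate numbers come from the sample titles. Deviations of same-numbered samples from the group means correlated at 0.339, 0.275 and 0.411 between PostDP and PreDP and at 0.553, 0.436 and 0.326 between M2 and SM&M1, so the numbers were taken to pair these samples, and not in the other comparisons. Alternatives were the replicate block, a fit of the groups compared, other filters, quantile normalization, centring on the median, the mean of all probe sets, a pseudocount of 1, trend and robust options, array weights and leaving out arrays.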

Additional observations from a re-analysis of the deposited data

How the results depend on the processing

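Of the calls of single genes in each comparison, 806 of those recomputed stayed as reported, 35 were gained, 20 were lost and 35 changed sign, and no called difference was among the sign changes. The number of members passing was 1 in PostDP against PreDP. It was 2 in a fit of the groups compared, with the filter at the 75th percentile, with all probe sets averaged and with trend and robust options, 4 with the replicate block and with array weights, and 1 to 3 when arrays were left out in turn. Over all genes 1772 passed in the main fit, 1547 to 2246 in those settings with 2 members, and 2992 in that with 3. With the block 2703 passed, and with array weights 3696. In SM&M1 against PostDP it was 4, and 7 with array weights, and 2 to 5 without single arrays. Here 1423 genes of all passed in the main fit, 3389 with array weights and 871 to 2726 without single arrays. In Tak1-deficient SM&M1 against SM&M1 it was 2, and 0 in a fit of the groups compared and with the replicate block, which called 0 genes of all, 4 with the mean of all probe sets, and 0 to 3 without single arrays. The main fit passed 201 genes of all, and the fit of the groups compared 5. With the mean of all probe sets 184 passed, and without single arrays 65 to 347. In Tak1-deficient SM&M1 against PostDP it was 0, and 1 with all probe sets averaged and with array weights, and 0 to 1 without single arrays. Genes of all that passed were 1292 in the main fit, 1341 with all probe sets averaged and 1957 with array weights. Without single arrays they were 674 to 1776. With neither SM&M1 replicate 1 nor M2 replicate 1, chosen after seeing the data, 2 passed in SM&M1 against PostDP and 1 in Tak1-deficient SM&M1 against SM&M1, and leaving out Tak1-deficient replicate 2 as well gave 2 in PostDP against PreDP and 1 in Tak1-deficient SM&M1 against SM&M1. The counts in M2 against SM&M1 (0) and M2 against PreDP (6) kept within 1.5 times under all alternatives run. Across these alternatives, 82 to 931 genes of all passed in the first comparison and 2385 to 5495 in the second. Centring arrays on their medians moved the median of all genes in PostDP against PreDP to -0.13, and in M2 against PreDP to -0.10, and in Tak1-deficient SM&M1 against SM&M1 to -0.09.

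Sign changes in PostDP against PreDP were Ifih1 at -0.0034 with centring (0.13 relative to the median of all genes), -0.07 with array weights and -0.11 to 0.39 without single arrays, Eif2ak2 at -0.07 to 0.27 without single arrays, Mavs at 0.06 with the mean of all probe sets and -0.16 to 0.05 without single arrays, and Tbk1 at -0.10 with centring and -0.05 with all probe sets averaged. In Tak1-deficient SM&M1 against SM&M1 they were Mavs at 0.11 with array weights, 0.14 in the added setting without 3 arrays and -0.11 to 0.13 without single arrays, and Tbk1 at 0.04 in both of these settings and -0.36 to 0.07 without single arrays. In Tak1-deficient SM&M1 against PostDP they were Eif2ak2 at -0.07 with centring, -0.12 with array weights, -0.12 in the added setting and -0.12 to 0.27 without single arrays, Tbk1 at -0.09 with centring and -0.14 to 0.29 without single arrays, Ikbke at -0.04 to 0.36 without single arrays, and Tank at 0.02 with the mean of all probe sets, 0.51 with array weights and 0.61 in the added setting, and -0.42 to 0.61 without single arrays. The cause was not tested.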
